A study of Mus musculus with 12 samples.

Results

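The 10 genes described here encode chaperones, folding enzymes and regulators of the endoplasmic reticulum (ER): Hspa5, Hsp90b1, Calr, Dnajb9, Sdf2l1, Manf, Pdia4, Pdia6, Herpud1 and Xbp1. They were taken by symbol from a mouse count table with 56747 gene rows. Each symbol matched 1 of the 37542 gene rows used. The cells were macrophages derived from bone marrow (BMDMs), primary cells grown from C57BL/6N marrow in medium conditioned by L929 fibroblasts, which secrete a macrophage growth factor. The 4 groups of 3 libraries were Alpk1-/- (KO) cells given ADP-Hep, KO cells given PBS, wild-type (WT) cells given ADP-Hep and WT cells given PBS. ADP-Hep (ADP-heptose) is a bacterial sugar nucleotide that is sensed by the kinase ALPK1, and it was used at 100 µM for 4 h. The labels give neither the age or sex of the mice nor the deleted part of Alpk1. Nor do they tie the 3 libraries of each group to separate mice or cultures, so p-values reflect only how far these libraries varied, and that variation may be technical.

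The ER folds secreted and membrane proteins. When unfolded proteins build up there, the membrane sensors IRE1, ATF6 and PERK start the unfolded protein response (UPR), which raises ER chaperones, folding enzymes and the machinery that exports misfolded proteins for degradation. IRE1 splices Xbp1 mRNA into the form that encodes an active transcription factor, ATF6 is cleaved into one, and PERK slows translation and favours the factor ATF4. In macrophages this folding capacity serves surface receptors and secreted cytokines.

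In WT macrophages ADP-Hep raised 6 of the 10 mRNAs (Herpud1, Manf, Hspa5, Pdia6, Calr and Xbp1), and 1 (Pdia4) fell. Among all 12261 genes tested, 31.9% were called higher and 31.6% lower in that comparison. The 10 genes were chosen with earlier results of these data known. Shares of all genes are therefore given here for scale, and an excess over them is not a test. In KO macrophages ADP-Hep raised none of the 10, and 2 fell (Herpud1 and Dnajb9), where 13.7% of all genes were called higher and 15.3% lower, so the count of members that fell is close to the background. Under PBS, KO cells held less of 8 of these mRNAs than WT cells, where 5.82% of all genes were called lower and 5.57% higher. Under ADP-Hep all 10 were lower in KO than in WT cells, where 32.0% of all genes were called lower and 32.8% higher. The median log2 change of the 10 was -0.08 in KO cells and 0.19 in WT cells for ADP-Hep over PBS, and -0.30 under PBS and -0.42 under ADP-Hep for KO over WT. Over all genes tested the median was 0.0052 in KO cells and -0.0058 in WT cells for ADP-Hep over PBS, and 0.0013 under PBS and 0.0136 under ADP-Hep for KO over WT. Levels are in CPM, read counts scaled to a common library size with TMM factors. A gene was called, and is said to rise or fall, where edgeR's quasi-likelihood test gave a Benjamini-Hochberg adjusted p under 0.05 over all genes tested. Changes are log2 fold changes ± SE, the SE being approximated from the test's F statistic as the size of the change over the root of F.

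The promoters of several of these genes hold letters known as ER stress elements, and they are shown because the genes are commonly grouped by them. Both strands of the RefSeq promoter windows (GRCm38.p6, 250 bases before to 50 after the start) were searched, and 9 of the 10 genes had a window. The element ERSE (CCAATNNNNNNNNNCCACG) was present in Hspa5, Hsp90b1, Pdia6 and Calr, 4 of the 9, and in 39 of all 32851 windows of that length (0.119%). ERSE-II (ATTGGNCCACG) was present in Herpud1 and in 12 windows in all (0.0365%). The stretches holding them, with the element in capitals, are as follows, each written 5′ to 3′ on the gene's own strand; in Calr, and for the second of the 2 elements in Hsp90b1, the capitals hold the element on the opposite strand.
Hspa5, chr2:34772019-34772048, plus strand: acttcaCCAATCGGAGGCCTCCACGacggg
Hsp90b1, chr10:86705513-86705676, minus strand: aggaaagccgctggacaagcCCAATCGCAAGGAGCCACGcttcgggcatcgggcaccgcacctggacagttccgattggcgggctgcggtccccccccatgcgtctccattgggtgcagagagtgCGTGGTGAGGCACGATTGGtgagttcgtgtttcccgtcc
Pdia6, chr12:17266471-17266529, plus strand: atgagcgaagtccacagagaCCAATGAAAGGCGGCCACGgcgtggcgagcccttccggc
Calr, chr8:84847055-84847113, minus strand: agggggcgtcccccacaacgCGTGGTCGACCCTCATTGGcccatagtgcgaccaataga
Herpud1, chr8:94386357-94386407, plus strand: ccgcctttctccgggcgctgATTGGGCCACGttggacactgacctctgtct

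Measured from the RefSeq start, the ERSE lay at bases -65 to -47 in Hspa5, -98 to -80 in Pdia6 and -162 to -144 in Calr. Those of Hsp90b1 lay at -212 to -194 and -107 to -89, and the ERSE-II of Herpud1 at -52 to -42. The element UPRE (TGACGTG) was found in Hspa5 alone among the 9, and in 2.01% of all windows. Its core ACGTG, which lies within UPRE and overlaps the ERSE-II of Herpud1, was found in Hspa5, Calr, Herpud1, Pdia6 and Dnajb9 and in 19.6% of all windows. None of these letters was found in the windows of Pdia4, Sdf2l1 and Xbp1. Of the 5 genes with an ERSE or ERSE-II, Hspa5, Pdia6, Calr and Herpud1 rose with ADP-Hep in WT cells, and Hsp90b1 was not called. Among all genes tested 31.9% were called higher there. Of the other members, Xbp1 and Manf, which had no window, rose as well, Pdia4 fell, and Dnajb9 and Sdf2l1 were not called. Whether these letters bear on the changes was not tested. The Hspa5 stretch lies inside the GENCODE gene, which begins upstream of the RefSeq start, while the other 4 stretches lie outside theirs. These are matches of letters, not measured binding sites.

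Libraries held 16110654 to 31333973 counts in all and 12307826 to 25742912 in the rows used, where the KO columns line up with the gene identifiers. All 10 genes lie there and passed the filter on low counts, with 458 (Dnajb9) to 55378 (Hspa5) counts per library. The WT ADP-Hep libraries stood apart from the other 9 on the first principal component, which held 69.2% of the variance. On the second, which held 10.1%, the KO ADP-Hep libraries stood apart from all others. Alpk1 had 21.6, 19.2 and 22.4 CPM in KO ADP-Hep libraries, 22.3, 20.3 and 21.3 CPM in KO PBS libraries, 53.8, 55.3 and 52.3 CPM in WT ADP-Hep libraries and 30.1, 32.1 and 25.9 CPM in WT PBS libraries. Since the deleted stretch is not named, these counts are no test of the knockout. All 12 macrophage markers were detected, with 25950 to 30620 summed CPM per library. The 12 neutrophil markers summed to 269 to 279.6 CPM in KO ADP-Hep, 342 to 369 CPM in KO PBS, 300.2 to 319 CPM in WT ADP-Hep and 322.5 to 356 CPM in WT PBS libraries. The 12 B and plasma cell markers, of cells rich in ER, summed to 65.7 to 69.9 CPM in KO ADP-Hep, 62.0 to 70.1 CPM in KO PBS, 118 to 122 CPM in WT ADP-Hep and 59.4 to 61.9 CPM in WT PBS libraries, with Pax5 and Pou2af1 at 0 in all libraries. The 10 dendritic cell markers summed to 182 to 195 CPM in KO ADP-Hep, 214 to 222 CPM in KO PBS, 95.4 to 109 CPM in WT ADP-Hep and 187.5 to 196 CPM in WT PBS libraries, with Xcr1 at 0 in all WT libraries and Siglech in WT ADP-Hep libraries. WT ADP-Hep libraries, in which 6 of the 10 genes described rose, thus had the lowest sums for dendritic cell markers. They also had the highest sums for B and plasma cell markers. Within both lists markers went both ways with ADP-Hep in WT cells. Of 3 B and plasma cell markers tested 2 rose and 1 fell, and of 5 dendritic cell markers tested 1 rose and 2 fell. T and NK cell markers summed to 0.897 to 3.79 CPM and stromal markers to 9.67 to 14.8 CPM per library. The part of these markers in the results was not tested. In bulk libraries fewer cells of a type and less RNA per cell cannot be told apart.

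**Figure D1:**
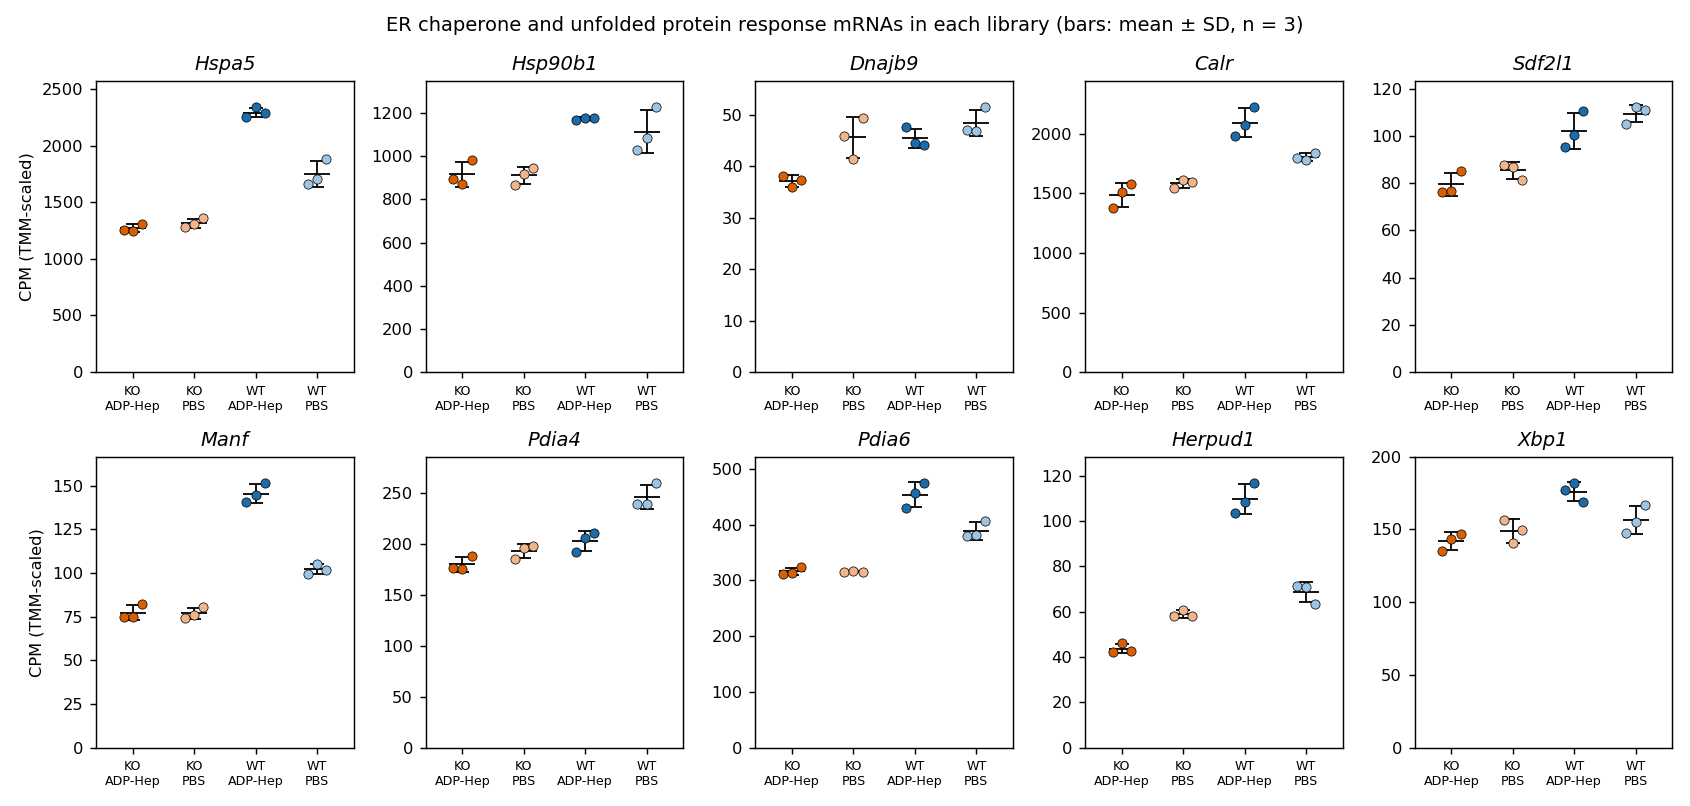
Level of each of the 10 mRNAs in every library, in TMM-scaled CPM on a linear axis that starts at 0; points are libraries and bars are the mean ± SD of the 3 libraries of a group. WT ADP-Hep libraries are the highest for Hspa5, Manf, Pdia6, Calr, Herpud1 and Xbp1, while Pdia4 is highest in WT PBS libraries.

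Per kilobase of exon, the levels of the 10 mRNAs differed widely. The length used was that of all annotated exons of a gene merged, 3524 bases for Manf. Levels per kb and ranks depend on that choice, since the transcripts expressed may be shorter. Calr averaged 605 CPM per kb over the 12 libraries and ranked 41 of 12261 genes, ahead of Hspa5 (392 CPM per kb, rank 63) and Hsp90b1 (255 CPM per kb, rank 104). Pdia6 (98.5 CPM per kb), Pdia4 (85.6 CPM per kb) and Sdf2l1 (85.0 CPM per kb) followed at ranks 355, 431 and 435. Xbp1 (48.0 CPM per kb, rank 879), Herpud1 (30.1 CPM per kb, rank 1534), Manf (28.5 CPM per kb, rank 1619) and Dnajb9 (17.3 CPM per kb, rank 2687) were lowest. Within each group neighbours in this order were separated in all libraries, except Pdia4 and Sdf2l1, which overlapped in every group, and Pdia6 and Pdia4 as well as Herpud1 and Manf, which overlapped in WT PBS libraries. The position of Herpud1 was not fixed: it stood above Manf in KO PBS and WT ADP-Hep libraries and below Manf in KO ADP-Hep libraries. Together the 10 genes took 0.460% to 0.498% of the counts in KO ADP-Hep, 0.472% to 0.483% in KO PBS, 0.628% to 0.644% in WT ADP-Hep and, in WT PBS libraries, 0.565% to 0.618%.

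Hspa5 encodes BiP, the Hsp70 chaperone of the ER, which binds unfolded chains and restrains the UPR sensors (ENSMUSG00000026864, mm10 chromosome 2, 34771970 to 34777547, plus strand). It had 1255, 1243 and 1309.7 CPM in KO ADP-Hep libraries and 1281, 1309.6 and 1358 CPM in KO PBS libraries. It had 2257, 2338 and 2285 CPM in WT ADP-Hep libraries and 1665, 1705 and 1878 CPM in WT PBS libraries. Every WT ADP-Hep library was above every WT PBS library, every KO library was below all WT libraries, and the KO groups overlapped. The change with ADP-Hep was -0.05 ± 0.05 in KO cells (adjusted p = 0.44) and 0.39 ± 0.05, or 1.31-fold, in WT cells (adjusted p = 7.3e-08). KO cells held 0.553 times the WT level under ADP-Hep (-0.85 ± 0.05, adjusted p = 2.7e-14) and 0.752 times the WT level under PBS (-0.41 ± 0.05, adjusted p = 9e-07). The response differed between genotypes, by 0.44 ± 0.07 as WT minus KO (adjusted p = 4.6e-06).

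Hsp90b1 encodes GRP94, the Hsp90 chaperone of the ER, whose clients include Toll-like receptors and integrins (ENSMUSG00000020048, mm10 chromosome 10, 86690209 to 86705509, minus strand). It had 894, 873 and 980.2 CPM in KO ADP-Hep libraries and 867, 919 and 947 CPM in KO PBS libraries. It had 1166, 1176 and 1178 CPM in WT ADP-Hep libraries and 1031, 1085 and 1226 CPM in WT PBS libraries. All KO libraries were below all WT libraries, while treated and PBS libraries overlapped in both genotypes. The change with ADP-Hep was 0.01 ± 0.06 in KO cells (adjusted p = 0.94) and 0.08 ± 0.06 in WT cells (adjusted p = 0.25). The 95% interval of the WT change ran from -0.03 to 0.18. Without WT PBS replicate 3, the highest of its group, the WT change was 0.15 and was called (adjusted p = 0.011). Hsp90b1 was lower in KO than in WT cells, with changes of -0.36 ± 0.06 under ADP-Hep (adjusted p = 5.5e-06) and -0.29 ± 0.06 under PBS (adjusted p = 0.00096). On the opposite strand its exons share 415 bases with the pseudogene 1810014B01Rik, which had at most 71 counts in a library against at least 11107 for Hsp90b1.

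Calr encodes calreticulin, a calcium-binding lectin chaperone of glycoproteins (ENSMUSG00000003814, mm10 chromosome 8, 84841850 to 84846934, minus strand). It had 1379, 1511 and 1579 CPM in KO ADP-Hep libraries and 1544, 1611 and 1599 CPM in KO PBS libraries. It had 1982, 2074 and 2222 CPM in WT ADP-Hep libraries and 1798, 1779.55 and 1842 CPM in WT PBS libraries. The 3 WT ADP-Hep libraries were the highest of all 12, and KO treated and PBS libraries overlapped. ADP-Hep changed it by -0.09 ± 0.05 in KO cells (adjusted p = 0.19) and by 0.21 ± 0.05, or 1.16-fold, in WT cells (adjusted p = 0.00067), and these responses differed by 0.30 ± 0.07 as WT minus KO (adjusted p = 0.00098). With library totals as the only scaling the WT change was 0.10 (adjusted p = 0.063) and the difference 0.15 (adjusted p = 0.064), neither of them called. Calr was lower in KO than in WT cells, with changes of -0.49 ± 0.05 under ADP-Hep (adjusted p = 4.6e-09) and -0.19 ± 0.05 under PBS (adjusted p = 0.014), the PBS difference not being called without KO PBS replicate 1 (-0.17, adjusted p = 0.078).

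Dnajb9, Sdf2l1 and Manf encode partners of BiP. Dnajb9 is ERdj4, a J-domain protein that drives BiP and is a known target of spliced XBP1 (ENSMUSG00000014905, mm10 chromosome 12, 44205559 to 44210326, minus strand). It had 38.1, 36.0 and 37.3 CPM in KO ADP-Hep libraries and 45.9, 41.4 and 49.5 CPM in KO PBS libraries. It had 47.6, 44.5 and 44.2 CPM in WT ADP-Hep libraries and 47.1, 46.8 and 51.4 CPM in WT PBS libraries. The KO ADP-Hep libraries were the lowest of all 12, and the other 3 groups overlapped. Dnajb9 fell with ADP-Hep in KO cells (-0.29 ± 0.07, or 0.820-fold, adjusted p = 0.0017), and the WT change of -0.09 ± 0.06 was not called (adjusted p = 0.19). The difference of these responses, 0.19 ± 0.09 as WT minus KO, was not called either (adjusted p = 0.083), but it was without WT PBS replicate 3 (0.24, adjusted p = 0.029) or KO PBS replicate 2 (0.26, adjusted p = 0.018). KO cells were lower than WT cells under ADP-Hep (-0.29 ± 0.06, adjusted p = 0.00031), though not with library totals as the only scaling (-0.14, adjusted p = 0.07), and under PBS the change was -0.10 ± 0.06 (adjusted p = 0.37).

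Sdf2l1 is a partner of the J-domain protein ERdj3 in keeping BiP clients soluble (ENSMUSG00000022769, mm10 chromosome 16, 17130138 to 17132383, minus strand). It had 76.3, 76.9 and 85.2 CPM in KO ADP-Hep libraries and 87.8, 87.0 and 81.4 CPM in KO PBS libraries. It had 95.4, 101 and 110.5 CPM in WT ADP-Hep libraries and 105, 112 and 111 CPM in WT PBS libraries. All KO libraries were below all WT libraries, and treated and PBS libraries overlapped in both genotypes. The change with ADP-Hep was -0.10 ± 0.06 in KO cells (adjusted p = 0.2) and -0.11 ± 0.06 in WT cells (adjusted p = 0.099), and their difference of -0.0039 had a 95% interval from -0.16 to 0.16. The WT change was called without WT ADP-Hep replicate 3 (-0.16, adjusted p = 0.015) and with library totals as the only scaling (-0.22, adjusted p = 0.0014). Sdf2l1 was lower in KO than in WT cells, with changes of -0.35 ± 0.06 under ADP-Hep (adjusted p = 7e-06) and -0.36 ± 0.06 under PBS (adjusted p = 0.00012).

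Manf is a small ER protein that binds BiP and can be secreted when the ER is stressed (ENSMUSG00000032575, mm10 chromosome 9, 106838312 to 106891979, minus strand). It had 75.0, 74.7 and 82.3 CPM in KO ADP-Hep libraries and 74.4, 76.0 and 80.7 CPM in KO PBS libraries. It had 140.5, 145 and 151 CPM in WT ADP-Hep libraries and 99.6, 105 and 102 CPM in WT PBS libraries. The KO groups lay over each other, below WT PBS libraries, which were below WT ADP-Hep libraries. ADP-Hep changed it by 0.01 ± 0.05 in KO cells (adjusted p = 0.92) and 0.51 ± 0.05, or 1.42-fold, in WT cells (adjusted p = 2.5e-09), a difference of 0.50 ± 0.07 as WT minus KO (adjusted p = 3.7e-06). KO cells held 0.533 times the WT level under ADP-Hep (-0.91 ± 0.05, adjusted p = 3.9e-14) and 0.753 times under PBS (-0.41 ± 0.05, adjusted p = 5.4e-06). Its exons share 146 bases with Dcaf1 on the opposite strand and 14 bases with Rbm15b on its own strand, and the strand setting of the counting is not given in the sources used here.

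The disulfide isomerases Pdia4 and Pdia6 form and rearrange disulfide bonds, and the pair moved in opposite directions in WT cells. Pdia4 (ERp72; ENSMUSG00000025823, mm10 chromosome 6, 47796141 to 47813430, minus strand) had 176, 175 and 188 CPM in KO ADP-Hep libraries and 185, 196 and 198 CPM in KO PBS libraries. It had 192, 205 and 211 CPM in WT ADP-Hep libraries and 239, 239 and 259 CPM in WT PBS libraries. The WT PBS libraries were the highest of all 12, and the KO groups overlapped. Pdia4 fell with ADP-Hep in WT cells (-0.28 ± 0.05, or 0.822-fold, adjusted p = 2e-05), the one member to do so, and the KO change was -0.10 ± 0.05 (adjusted p = 0.13). The responses differed by -0.18 ± 0.07 as WT minus KO (adjusted p = 0.037), a call that was lost when WT PBS replicate 3 (adjusted p = 0.11), WT ADP-Hep replicate 1 (adjusted p = 0.12), WT ADP-Hep replicate 2 (adjusted p = 0.058), KO PBS replicate 1 (adjusted p = 0.098) or the KO ADP-Hep library with no number (adjusted p = 0.12) was left out. Pdia4 was lower in KO than in WT cells under ADP-Hep (-0.17 ± 0.05, adjusted p = 0.0043), though not with library totals as the only scaling (-0.01, adjusted p = 0.8), and its change under PBS was -0.35 ± 0.05 (adjusted p = 2.2e-05).

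Pdia6 (P5; ENSMUSG00000020571, mm10 chromosome 12, 17266545 to 17284770, plus strand) had 312, 313 and 324 CPM in KO ADP-Hep libraries and 314, 317 and 316 CPM in KO PBS libraries. It had 430.5, 457 and 475 CPM in WT ADP-Hep libraries and 379, 381 and 408 CPM in WT PBS libraries. The 6 KO libraries lay between 312 and 324 CPM, below all WT libraries, and the WT ADP-Hep libraries were the highest. The change with ADP-Hep was 0.0035 ± 0.05 in KO cells (adjusted p = 0.96) and 0.22 ± 0.04, or 1.17-fold, in WT cells (adjusted p = 0.00013). The difference of 0.22 ± 0.06 as WT minus KO (adjusted p = 0.0063) was 0.06 and not called with library totals as the only scaling (adjusted p = 0.4). Pdia6 was lower in KO than in WT cells, with changes of -0.52 ± 0.04 under ADP-Hep (adjusted p = 2e-10) and -0.30 ± 0.05 under PBS (adjusted p = 4.3e-05).

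Herpud1 encodes a membrane protein of the HRD1 ubiquitin ligase complex in ER-associated degradation, the export of misfolded proteins to the proteasome (ENSMUSG00000031770, mm10 chromosome 8, 94386438 to 94395377, plus strand). It had 42.3, 46.1 and 42.7 CPM in KO ADP-Hep libraries and 57.9, 60.8 and 58.1 CPM in KO PBS libraries. It had 104, 108 and 117 CPM in WT ADP-Hep libraries and 71.5, 71.1 and 63.4 CPM in WT PBS libraries. The 4 groups did not overlap, and ADP-Hep libraries were at the low end in KO cells and at the high end in WT cells. Herpud1 fell with ADP-Hep in KO cells (-0.44 ± 0.06, or 0.738-fold, adjusted p = 5.8e-06) and rose in WT cells (0.67 ± 0.06, or 1.60-fold, adjusted p = 1e-10). The difference of 1.11 ± 0.08 as WT minus KO was the largest of the 10 (adjusted p = 3.6e-11). KO cells held 0.399 times the WT level under ADP-Hep (-1.33 ± 0.06, adjusted p = 2.5e-16). Under PBS it was lower in KO cells as well (-0.21 ± 0.06, adjusted p = 0.021), a call lost without WT PBS replicate 1 (adjusted p = 0.087), WT PBS replicate 2 (adjusted p = 0.097), KO PBS replicate 1 (adjusted p = 0.088) or KO PBS replicate 3 (adjusted p = 0.074). With ADP-Hep in KO cells 5 of the 9 neutrophil markers tested fell and 0 rose, where 15.3% of all genes fell and 13.7% rose. Of 12 macrophage markers 3 rose and 2 fell there, and of 5 dendritic cell markers tested 1 rose and 1 fell. In WT cells 3 of the 9 neutrophil markers rose and 2 fell. The part of these markers in the changes of Herpud1 was not tested.

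Xbp1 encodes the transcription factor made active by IRE1 splicing (ENSMUSG00000020484, mm10 chromosome 11, 5520659 to 5525893, plus strand). Counts per gene do not separate its spliced and unspliced forms, so its values are total mRNA. It had 135, 144 and 147 CPM in KO ADP-Hep libraries and 156, 140.4 and 149.8 CPM in KO PBS libraries. It had 177, 182 and 169 CPM in WT ADP-Hep libraries and 148, 155 and 167 CPM in WT PBS libraries. The WT ADP-Hep libraries were the highest of all 12, by a small margin over WT PBS replicate 3, and the other 3 groups overlapped in part. Xbp1 changed by -0.07 ± 0.05 with ADP-Hep in KO cells (adjusted p = 0.37) and rose in WT cells by 0.17 ± 0.05, or 1.12-fold (adjusted p = 0.0077). The WT call was lost without WT PBS replicate 1 (0.13, adjusted p = 0.063) and with library totals as the only scaling (0.06, adjusted p = 0.37). The responses differed by 0.24 ± 0.08 as WT minus KO (adjusted p = 0.011), which was 0.08 and not called under that scaling (adjusted p = 0.38). KO cells were lower than WT cells under ADP-Hep (-0.31 ± 0.05, adjusted p = 1.3e-05), and under PBS the change was -0.08 ± 0.05 (adjusted p = 0.4).

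**Figure D2:**
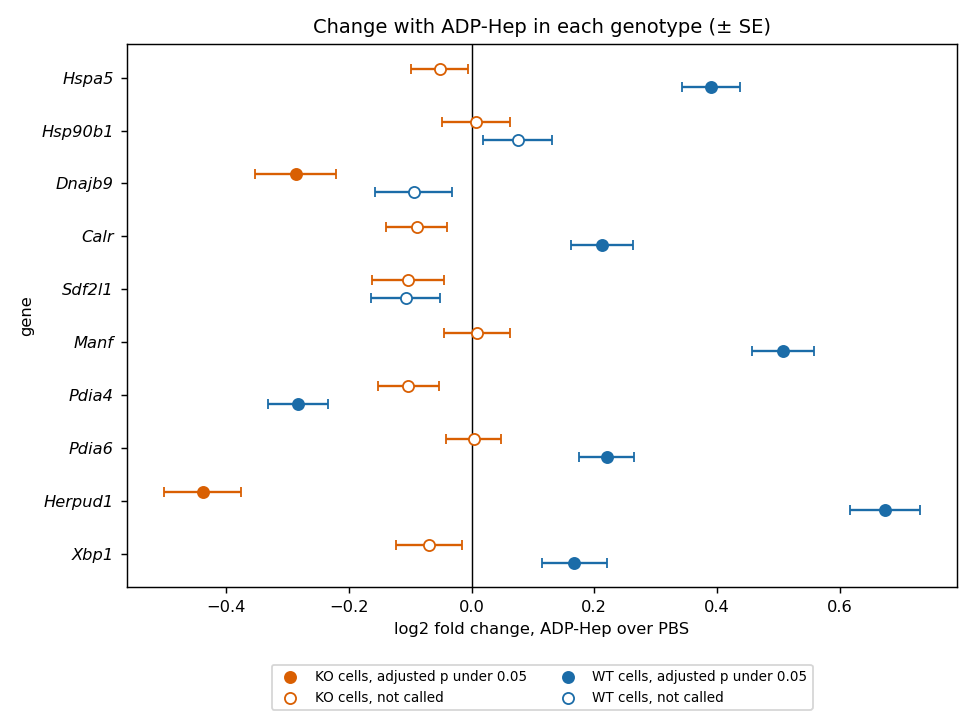
Log2 fold change of ADP-Hep over PBS for each of the 10 mRNAs, in KO cells (orange) and WT cells (blue), with bars of ± SE; filled points were called and open points were not. Herpud1 is called on opposite sides of 0 in the 2 genotypes, and Pdia4 is the one filled WT point below 0.

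Set beside each other, the changes with ADP-Hep spread over a narrow range in KO cells, -0.44 to 0.0087, and over a wider one in WT cells, -0.28 to 0.67. The direct test of the difference between the responses called 7 of the 10 genes, 6 with a higher change in WT cells (Herpud1, Manf, Hspa5, Calr, Xbp1 and Pdia6) and 1 with a lower one (Pdia4). Among all genes tested 24.6% were called higher and 24.9% lower in that test. Hsp90b1 (0.07 ± 0.08, adjusted p = 0.5), Dnajb9 and Sdf2l1 were not called. The count of 1 lower member in the WT response became 2 without WT ADP-Hep replicate 3, with Sdf2l1 added, and the count of 1 in the difference became 0 without each of the 5 libraries named for Pdia4. Scaling by library totals alone shifted the median change of all genes from near 0 to -0.12 in the WT response and -0.16 in the difference, with 2990 genes higher and 4927 lower in the WT response, against 3914 higher and 3871 lower with TMM. In the KO response it gave 2360 higher and 1483 lower, against 1678 higher and 1870 lower with TMM, and in the difference 2020 higher and 4507 lower, against 3018 higher and 3053 lower with TMM. Under it 3 members were lower in the WT response, and 4 were called in the difference, 3 of them higher. Calr and Xbp1 were then no longer called higher in the WT response.

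**Figure D3:**
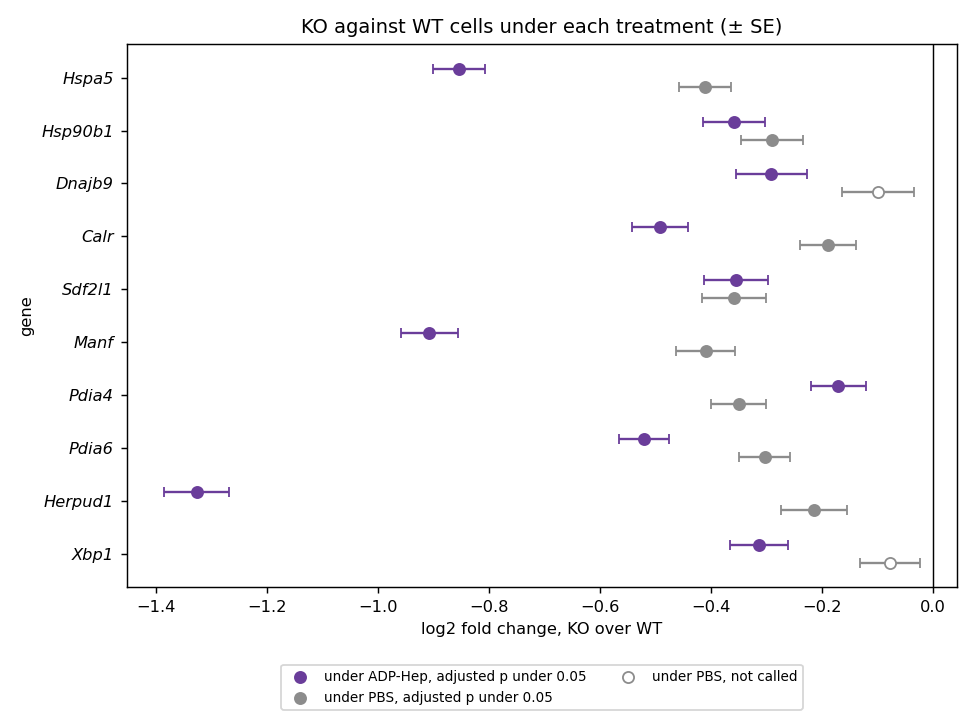
Log2 fold change of KO over WT cells for each of the 10 mRNAs, under ADP-Hep (purple) and under PBS (grey), with bars of ± SE; filled points were called. All points lie below 0, and Dnajb9 and Xbp1 under PBS are the open ones.

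The comparison of genotypes asked how far the 2 kinds of macrophage differed at each treatment. Under PBS, libraries of KO and WT cells did not overlap for 8 of the 10 genes, all lower in KO, where 14.5% of all genes had KO below. The changes called ran from -0.41 (Hspa5 and Manf) to -0.19 (Calr). Under ADP-Hep all 10 were below WT without overlap, where 33.7% of all genes had KO below. The changes ran from -1.33 (Herpud1) to -0.17 (Pdia4). With library totals as the only scaling the median of all genes was 0.17 under ADP-Hep, with 5609 genes higher and 2722 lower in KO cells, against 4016 higher and 3929 lower with TMM, and 8 of the 10 were called lower. The WT and KO groups within a treatment enter both the genotype comparison and the ADP-Hep comparisons, so these changes are not independent of each other.

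The other genes of the pathway were taken from 6 lists, to be read against the shares of all genes called and the medians of all genes given above. A list of 12 held UPR sensors, regulators of the IRE1 and ATF6 arms and other genes grouped with them, such as Sec24d and Creld2. Of these, ADP-Hep lowered 1 and raised 0 in KO cells, and raised 5 and lowered 6 in WT cells. The medians were -0.08 in KO cells and -0.03 in WT cells. The KO counts turned round, to 2 higher and 0 lower, with library totals as the only scaling. The KO count of 1 lower was 0 without KO PBS replicate 3 and 2 without WT PBS replicate 3. In WT cells Sec24d, a cargo adaptor of the COPII coat, rose (0.42 ± 0.05, adjusted p = 1.3e-08). Ern1, which encodes IRE1 itself, fell with 53.7 ± 1.81 CPM under ADP-Hep and 71.0 ± 4.97 CPM under PBS (-0.40 ± 0.06, adjusted p = 4e-06). Creb3l2, an ATF6-related factor (-0.52 ± 0.08, adjusted p = 1.5e-06), and Mbtps2, the site-2 protease that releases ATF6 (-0.35 ± 0.05, adjusted p = 4.9e-06), fell as well, and Mbtps2 also fell in KO cells (-0.19 ± 0.05, adjusted p = 0.01). Under ADP-Hep 5 of the 12 were higher and 4 lower in KO than in WT cells, with Ern1 higher (0.59 ± 0.06, adjusted p = 4.8e-09) and Creld2 (-0.87 ± 0.06, adjusted p = 2.2e-12), Sec24d (-0.71 ± 0.05, adjusted p = 7.2e-13) and Creb3 (-0.51 ± 0.07, adjusted p = 4.8e-07) lower. Under PBS 1 was higher, Ern1 (0.31 ± 0.06, adjusted p = 0.00095), and 2 were lower, Sec24d (-0.39 ± 0.05, adjusted p = 2.7e-06) and Creld2 (-0.43 ± 0.06, adjusted p = 3.3e-05). Creld2 encodes an ER-resident protein that is known to be induced by ER stress.

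Of 12 genes of the PERK and ATF4 arm, 2 rose and 7 fell with ADP-Hep in KO cells, and 4 rose and 4 fell in WT cells, with medians of -0.58 in KO cells and -0.12 in WT cells. Atf4, the factor that the arm is named for, had 62.0 ± 3.46 CPM in KO ADP-Hep libraries and 118 ± 17.5 CPM in KO PBS libraries (-0.93 ± 0.09, adjusted p = 1.2e-06). The stress factors Atf3 (-0.79 ± 0.08, adjusted p = 4.4e-07) and Ddit3, or CHOP (-0.79 ± 0.14, adjusted p = 0.00021), and the phosphatase subunit Ppp1r15a, or GADD34 (-1.65 ± 0.21, adjusted p = 0.00023), fell in KO cells too. In WT cells Nupr1, a stress-induced nuclear protein (1.94 ± 0.20, adjusted p = 7.4e-07), and Ppp1r15a (1.41 ± 0.17, adjusted p = 3.8e-05) rose. Sesn2, an ATF4 target (-0.77 ± 0.08, adjusted p = 7.7e-09), and Eif2ak3, which encodes PERK (-0.42 ± 0.06, adjusted p = 6.3e-07), fell there. The difference of the responses was called in 10 of the 12, 7 higher and 3 lower as WT minus KO, with Sesn2 lower at -1.06 ± 0.11 (adjusted p = 1.1e-08) and Ppp1r15a at 3.07 ± 0.27 (adjusted p = 5.5e-06) and Atf4 at 1.00 ± 0.12 (adjusted p = 5.7e-06) higher. Under ADP-Hep 3 of the 12 were higher and 5 lower in KO than in WT cells. Under PBS 4 were higher in KO cells and 0 lower, with Atf3 at 0.45 ± 0.07 (adjusted p = 0.00064) and Asns, the asparagine synthetase, at 0.44 ± 0.08 (adjusted p = 0.0005). The KO count of 2 that rose was 1 without KO PBS replicate 3, KO ADP-Hep replicate 1 or the KO ADP-Hep library with no number. The WT count of 4 that fell was 2 without WT PBS replicate 2 or WT ADP-Hep replicate 2, and the 4 higher under PBS were 7 without WT PBS replicate 2 or KO PBS replicate 2.

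**Figure D4:**
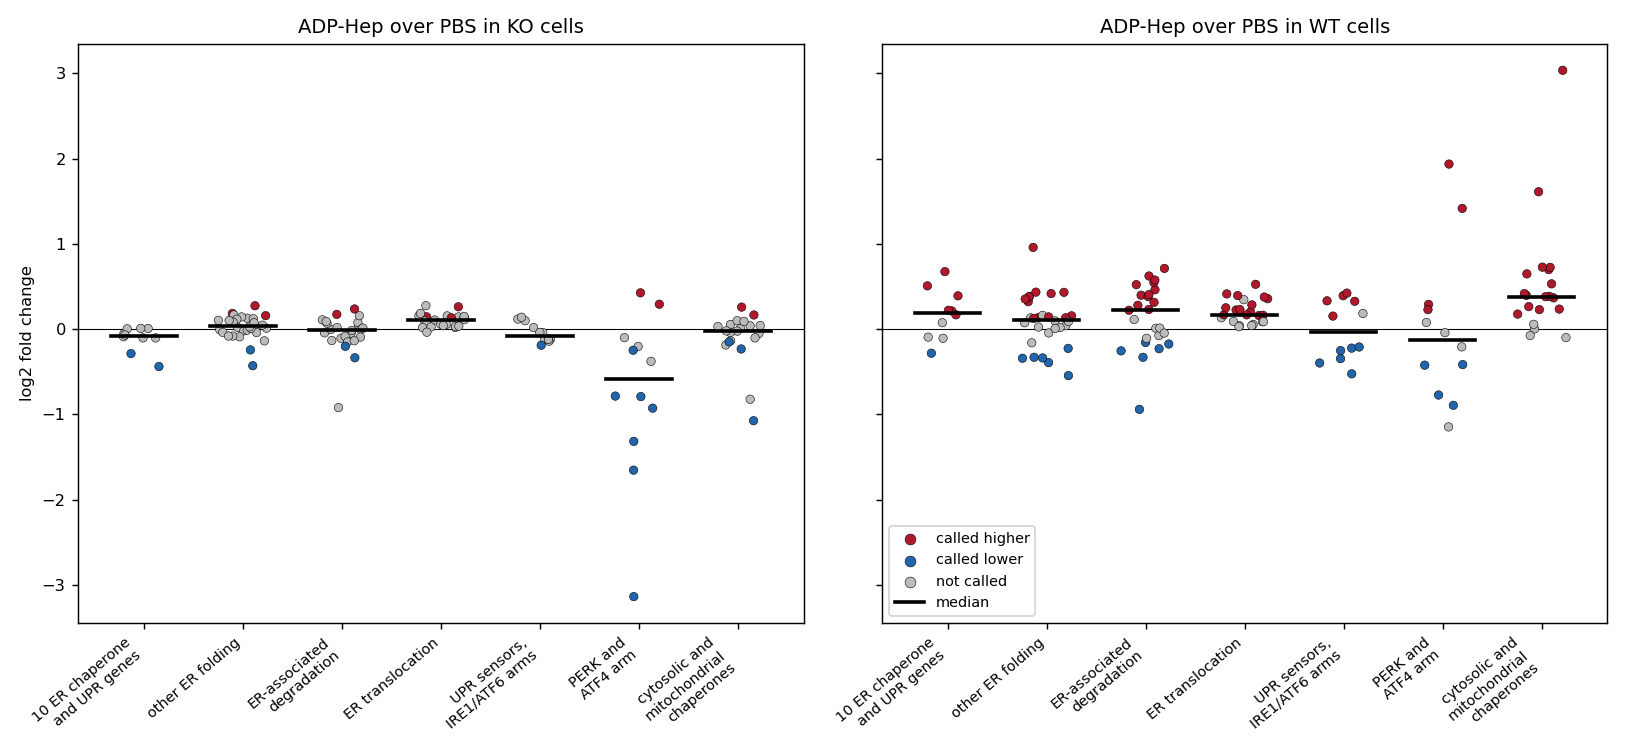
Log2 fold change of ADP-Hep over PBS for each gene tested of the 10 described and of 6 pathway lists, in KO cells (left) and WT cells (right); red points were called higher, blue points lower and grey points were not called, and the black bar is the median of a list. The cytosolic and mitochondrial chaperones have their median at -0.02 in KO cells and 0.38 in WT cells, and the PERK and ATF4 arm at -0.58 in KO cells and -0.12 in WT cells.

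Of 30 other ER folding enzymes and chaperones, 3 rose and 2 fell with ADP-Hep in KO cells, and 13 rose and 6 fell in WT cells, with medians of 0.03 in KO cells and 0.11 in WT cells. In KO cells Ero1lb, a paralogue of the oxidase gene Ero1l, fell (-0.43 ± 0.06, adjusted p = 2.6e-06), and Txndc11, a thioredoxin-domain protein, rose (0.27 ± 0.06, adjusted p = 0.00095). Ero1l, whose product recharges disulfide isomerases, had 38.7 ± 2.66 CPM in KO ADP-Hep libraries and 46.2 ± 3.33 CPM in KO PBS libraries (-0.24 ± 0.07, adjusted p = 0.0067). It had 92.0 ± 3.91 CPM in WT ADP-Hep libraries and 47.1 ± 2.50 CPM in WT PBS libraries (0.96 ± 0.06, adjusted p = 4e-13). Its responses thus lay on either side of 0, as those of Herpud1 did, and they differed by 1.20 ± 0.09 as WT minus KO (adjusted p = 3e-11). In WT cells the J-domain proteins Dnajc10 (0.43 ± 0.05, adjusted p = 7.9e-09) and Dnajb11 (0.38 ± 0.05, adjusted p = 8.4e-08) rose, and Erp29, a thioredoxin-fold protein, fell (-0.55 ± 0.04, adjusted p = 2.4e-11). Under ADP-Hep 6 of the 30 were higher and 17 lower in KO than in WT cells, among them Ero1l (-1.24 ± 0.06, adjusted p = 2.7e-15) and Hyou1, the ER Hsp110 chaperone (-0.73 ± 0.05, adjusted p = 9.7e-13). Under PBS 0 were higher and 8 lower, Hyou1 again included (-0.34 ± 0.05, adjusted p = 2.3e-05). That count of 8 was 3 without WT PBS replicate 3, 4 without KO PBS replicate 1 and 5 without KO PBS replicate 2, and without WT PBS replicate 3 the count higher was 1. With library totals as the only scaling, 7 rose in WT cells, 8 rose in KO cells and 8 were lower in KO than in WT cells under ADP-Hep. The KO count of 3 that rose was 1 without KO ADP-Hep replicate 1, and the 2 that fell were 1 without KO PBS replicate 1.

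Of 25 genes of ER-associated degradation, 2 rose and 2 fell with ADP-Hep in KO cells, and 13 rose and 6 fell in WT cells, with medians of -0.02 in KO cells and 0.22 in WT cells. The smallest p-values in WT cells were those of the ubiquitin-conjugating enzymes Ube2j1 (0.71 ± 0.05, adjusted p = 1.8e-12) and Ube2j2 (0.57 ± 0.06, adjusted p = 6.1e-09), Nploc4, a cofactor of the extraction ATPase p97 (0.62 ± 0.05, adjusted p = 5.8e-11), and Derl2, a channel component (0.52 ± 0.05, adjusted p = 5.2e-10). In KO cells Edem1, which marks misfolded glycoproteins, fell (-0.34 ± 0.04, adjusted p = 1.2e-06), and Ubxn4, a p97 recruiter, rose (0.24 ± 0.05, adjusted p = 0.00063). Sel1l, the scaffold of the complex that holds Herpud1, was lower in KO than in WT cells under ADP-Hep (-0.52 ± 0.04, adjusted p = 1.2e-10) and under PBS (-0.23 ± 0.04, adjusted p = 0.00063). Ube2j1 (-0.74 ± 0.05, adjusted p = 7.5e-13) and Nploc4 (-0.71 ± 0.05, adjusted p = 5.1e-12) were lower in KO cells under ADP-Hep too. Over the list 3 were higher and 13 lower in KO than in WT cells under ADP-Hep, and 0 were higher and 2 lower under PBS. With library totals as the only scaling, 9 were higher under ADP-Hep and 4 rose and 1 fell in KO cells. The 3 higher under ADP-Hep were 5 without WT ADP-Hep replicate 3. The 2 that fell in KO cells were 1 without KO PBS replicate 1, KO ADP-Hep replicate 1 or the KO ADP-Hep library with no number, and 4 without KO ADP-Hep replicate 3. Under PBS the 2 lower were 1 without WT PBS replicate 3 or KO PBS replicate 1, and the 0 higher were 1 without WT ADP-Hep replicate 3 or KO ADP-Hep replicate 3.

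Of 23 genes of ER translocation and signal peptide processing, 3 rose and 0 fell with ADP-Hep in KO cells, and 14 rose and 0 fell in WT cells, with medians of 0.11 in KO cells and 0.17 in WT cells. In WT cells both subunits of the receptor for the signal recognition particle rose, Srpr (0.36 ± 0.05, adjusted p = 3e-07) and Srprb (0.41 ± 0.06, adjusted p = 2.8e-06), as did the translocon-associated subunits Ssr2 (0.38 ± 0.06, adjusted p = 1.9e-06) and Ssr1 (0.25 ± 0.05, adjusted p = 3.9e-05). Ssr1 rose in KO cells too (0.26 ± 0.05, adjusted p = 0.00011), with Ssr3 (0.13 ± 0.05, adjusted p = 0.028) and the signal peptidase subunit Sec11a (0.14 ± 0.05, adjusted p = 0.04). In KO against WT cells 0 were higher and 14 lower under ADP-Hep, and 0 higher and 7 lower under PBS. With library totals as the only scaling 10 rose in KO cells, 8 rose in WT cells and 6 were lower and 1 higher in KO than in WT cells under ADP-Hep. The 3 that rose in KO cells were 6 without WT PBS replicate 3 or WT ADP-Hep replicate 3, 5 without KO ADP-Hep replicate 3 and 1 without KO ADP-Hep replicate 1 or the KO ADP-Hep library with no number. The 7 lower under PBS were 4 without WT PBS replicate 3 and 3 without KO PBS replicate 3, and the 0 higher under ADP-Hep were 1 without WT PBS replicate 3, WT ADP-Hep replicate 2 or KO ADP-Hep replicate 3.

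Chaperones outside the ER were taken as a further list, of which 20 of 21 were tested. With ADP-Hep 2 rose and 3 fell in KO cells, and 16 rose and 0 fell in WT cells, with medians of -0.02 in KO cells and 0.38 in WT cells. In WT cells the cytosolic J-domain proteins Dnaja2 (0.72 ± 0.05, adjusted p = 7e-12) and Dnaja1 (0.70 ± 0.07, adjusted p = 1.1e-09) and Stip1, which links Hsp70 to Hsp90 (0.65 ± 0.06, adjusted p = 1.6e-10), rose. Hspa1b, an inducible Hsp70, had 0.972 ± 0.261 CPM in KO ADP-Hep, 2.04 ± 0.958 CPM in KO PBS, 6.64 ± 1.12 CPM in WT ADP-Hep and 0.808 ± 0.168 CPM in WT PBS libraries, and it rose in WT cells (3.03 ± 0.25, adjusted p = 1.7e-10). Its near-identical copy Hspa1a makes these values uncertain. The difference of the responses was called in 15 of the 20, all higher as WT minus KO. In KO against WT cells 0 were higher and 18 lower under ADP-Hep, with Dnaja2 at -0.72 ± 0.05 (adjusted p = 6.9e-12), Hspa1b at -2.82 ± 0.24 (adjusted p = 2.9e-10) and Hsp90aa1, the inducible cytosolic Hsp90, at -0.67 ± 0.06 (adjusted p = 7.5e-09). Under PBS 1 was higher (Hspa1b) and 0 lower, the first being 0 and the second 1 without KO PBS replicate 3, and the second also 1 without WT PBS replicate 1 or the KO ADP-Hep library with no number. Scaling by library totals alone gave other counts: 1 fell in KO cells, 2 fell in WT cells, 1 was lower in the difference and 2 were higher in KO than in WT cells under ADP-Hep. The 0 higher under ADP-Hep were 1 without KO ADP-Hep replicate 1. The 2 that rose in KO cells were 0 or 1 without WT PBS replicate 2, any WT ADP-Hep library, KO PBS replicate 1 or 2, or the KO ADP-Hep library with no number, and the 3 that fell were 0 without KO PBS replicate 3 or KO ADP-Hep replicate 1.

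Genes of like pattern were sought among 9779 other genes with at least 5 CPM in a group, by Pearson's r over the 12 libraries with the mean standardized log2 CPM of the 10. The closest were Cd33 (r = 0.98), Ctsl (r = 0.98), Creld2 (r = 0.98), Rai14 (r = 0.97) and Atp6v0c (r = 0.97). Here r is only a description, since the libraries fall into 4 groups and all genes of a library share its depth. Cd33, a sialic-acid-binding receptor of myeloid cells, averaged 23.2 CPM in KO ADP-Hep, 28.8 CPM in KO PBS, 57.3 CPM in WT ADP-Hep and 46.9 CPM in WT PBS libraries. Ctsl, the lysosomal protease cathepsin L, averaged 1121 CPM in KO ADP-Hep, 1175 CPM in KO PBS, 1497 CPM in WT ADP-Hep and 1431 CPM in WT PBS libraries. Creld2, also on the list with the UPR sensors above, averaged 32.9 CPM in KO ADP-Hep and 35.6 CPM in KO PBS libraries. It averaged 60.1 CPM in WT ADP-Hep and 47.8 CPM in WT PBS libraries.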

How the data were processed

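The authors deposited 1 table of raw read counts per gene for all 12 libraries. Per the labels' protocols, a stranded mRNA library kit was used on extracted RNA. Per the submitters' processing notes, mm10 and hg38 were the builds, and STAR, RSEM, featureCounts, DESeq2, FastQC and Trim Galore the tools. Which of them counted reads, on which strand and with which annotation, is not given in the sources used here. From a point in the table on, the KO columns sat 1 row below their identifiers (correlation of mean log2 counts of KO and WT libraries 0.996 above it and 0.042 below it). The 37542 rows above it, less a margin of 100 rows, were used, and 19207 rows were not. Annotation, exon lengths and gene coordinates are from GENCODE mouse release M21 (mm10), which held all 37542 identifiers. The replicate number of 1 KO ADP-Hep column fits no label, so that library stayed in its group without a number.

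In R 4.3.3, edgeR 4.0.16 scaled the libraries by TMM and kept 12261 genes by filterByExpr. It fitted 1 robust quasi-likelihood model of the 4 group means. The model gave 5 comparisons, adjusted over all genes tested. A trial on simulated data left out the difference of the responses and changed far fewer genes than were called here. Every simulated gene had the same spread. The trial's rule for recovery covered only changes of at least 2-fold, so smaller changes such as those of the members were not covered. Counts of replicate pairs differed by more than sampling noise (chi-square over its degrees of freedom 1.93 to 10.1). The biological coefficient of variation was 4.81%. From each pathway list the text names up to 4 called genes with the smallest p in a comparison. Alternatives were DESeq2 size factors, library totals, DESeq2 1.42.0, 2 other low-count filters, no robust estimation, a replicate block, all rows with KO columns moved up, and each library left out. The members and lists were chosen with earlier results of these data known.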

Additional observations from a re-analysis of the deposited data

Results flagged for a closer look

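The response to ADP-Hep differed between KO and WT cells by a direct test of the difference for 7 of the 10 genes. The test was an interaction in edgeR's quasi-likelihood model, adjusted over 12261 genes. It called 24.6% of all genes tested higher and 24.9% lower, so such a difference is not particular to these genes. As WT minus KO on the log2 scale, the difference was 1.11 for Herpud1, which fell in the 3 KO ADP-Hep libraries and rose in the 3 WT ADP-Hep libraries relative to PBS. It was 0.50 for Manf, 0.44 for Hspa5, 0.30 for Calr, 0.24 for Xbp1 and 0.22 for Pdia6, which rose in WT cells and were not called in KO cells. It was -0.18 for Pdia4, which fell in WT cells and was not called in KO cells.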

How the results depend on the processing

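Over 20 alternative settings, the 10 genes gave 1000 log2 changes in the 5 comparisons; 947 kept their direction and their side of the threshold, 22 were no longer called and 6 became called. The other 25 switched sign, all of them changes near 0 that were called under neither setting. Library totals gave -0.037 for Hsp90b1 in WT cells and -0.089 for its difference. In KO cells Pdia6 was at -0.00044 with DESeq2 size factors, -0.00039 with DESeq2's Wald test, -0.0050 with a filter of at least 1 CPM and -0.016 with the replicate block, Hsp90b1 at -0.0010 with that filter and -0.045 with the block, and Manf at -0.034 with the block. The Sdf2l1 difference was 0.0089 with DESeq2 size factors, 0.0101 with the Wald test and 0.043 with the block. With each library left out in turn, the KO change ran from -0.044 to 0.041 for Hsp90b1, from -0.039 to 0.042 for Manf and from -0.014 to 0.012 for Pdia6, and the Sdf2l1 difference from -0.0596 to 0.0498. With library totals as the only scaling, 3 members were lower in the WT response, and 4 were called in the difference of the responses, 3 of them higher. Calr (adjusted p = 0.063) and Xbp1 (adjusted p = 0.37) were no longer called higher in the WT response under that scaling. The member lower in the difference, Pdia4, was lost, leaving 0, with DESeq2 size factors (adjusted p = 0.059), DESeq2's Wald test (adjusted p = 0.066), all rows with KO columns moved up (adjusted p = 0.06) and the replicate block (adjusted p = 0.11). With each library left out in turn, 1 to 2 members were lower in the WT response and 0 to 1 in the difference, in which 6 to 8 were called and 6 to 7 were higher. In the same runs 6 to 8 members were called in the WT response, 2 in the KO response, 6 to 8 lower in KO cells under PBS and 10 lower under ADP-Hep. The replicate block, over the 11 libraries with a number, called 7 members in the WT response, 2 in the KO response, 6 in the difference, 8 in KO against WT cells under PBS and 10 under ADP-Hep. No clear pairing of libraries by replicate number was seen. Deviations of libraries with the same number correlated at -0.37 to 0.22 (median 0.068), with 4 of 15 over 0.1. For different numbers they correlated at -0.22 to 0.24 (median -0.015), with 7 of 30 over 0.1. With 3 libraries a group the check is coarse, and pairing was not excluded. For the list counts given above, values that moved by over 1.5 times with library totals or a library left out stand beside them. With 3 libraries a group, the smallest member change called was 0.17 (Xbp1 in WT cells).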
